A study of Mus musculus with 7 samples.

Results

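The calcium/calmodulin-dependent kinases (CaM kinases) are described here in the forebrain of *Lhx6* mutant mice through 10 of the 47729 genes in the count table, taken by symbol: *Camkk1*, *Camkk2*, *Camk1*, *Camk1d*, *Camk1g*, *Camk4*, *Camk2a*, *Camk2b*, *Camk2d* and *Camk2g*. All 10 had at least 10 counts in at least 3 libraries and were among the 19684 genes tested. RNA was taken from whole forebrain at postnatal day 15 in 4 samples of *Lhx6*+/- (control) and 3 samples of *Lhx6*-/- (mutant) mice, each a pool of 2 animals. All animals were F1 of C57BL/6 and 129Sv and carried the Lhx6tm2Vpa allele, so the controls are heterozygotes and no wild-type sample was analysed here. *Lhx6* encodes the transcription factor that directs interneurons born in the medial ganglionic eminence, and the comparison asks how its complete loss changes forebrain RNA.

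Libraries held between 32556304 and 38069151 counts, and all values below are counts scaled to a common library size by edgeR's TMM method (normalized counts). *Lhx6* itself had 615, 522, 476 and 522 normalized counts in controls and 70.9, 76.6 and 70.1 in mutants, in the direction of the labels. Libraries are called by the number in their column name. Libraries 2, 3 and 5 stood apart from libraries 10 to 13 on the first principal component (39.6% of the variance), and both runs of numbers hold both genotypes, so the genotypes can also be compared inside each of the runs. Library 5 is the only mutant library of its run, so differences within libraries 2, 3 and 5 rest on a single mutant pool and have no test. The genes were taken by symbol, but the family itself was chosen by the genotype differences that an earlier pass over the same counts had shown for its members. The adjusted p-values of the all-gene fit are therefore printed to describe where each kinase fell in it, and they are no support for the choice of the family.

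CaM kinases are serine/threonine kinases that calcium-loaded calmodulin switches on, and so turn calcium entry at active synapses into phosphorylation. They fall into 2 arms. In the cascade arm, CaM kinase kinases (*Camkk1*, *Camkk2*) phosphorylate and activate CaMKI (*Camk1*, *Camk1d*, *Camk1g*) and CaMKIV (*Camk4*), and CaMKK2 also phosphorylates AMP-activated kinase. In the other arm, CaMKII subunits (*Camk2a*, *Camk2b*, *Camk2d*, *Camk2g*) assemble into large holoenzymes that keep themselves active by autophosphorylation and are best known for their part in synaptic plasticity.

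*Camkk2* was the kinase whose RNA differed most, by size of change, between the genotypes: its mean normalized count in mutant forebrain was 49.2% of that in controls. *Camkk1*, *Camk4* and *Camk2a* were lower by less, *Camk1g* and *Camk2d* lay higher, and *Camk1*, *Camk1d*, *Camk2b* and *Camk2g* had overlapping libraries. By edgeR's quasi-likelihood test at an adjusted p of 0.05 or less (Benjamini-Hochberg over all genes), 1 of the 10 kinases was called, *Camkk2*, lower in mutants, against 4.85% of all tested genes called in either direction, 1.87% lower and 2.97% higher. Below, a gene is said to be called by this fit, with all 7 libraries and the genotype as its one term, unless another fit is named. The 3 mutant libraries lay outside the range of the 4 control libraries for 6 of the 10 kinases, 4 below and 2 above, against 19.7% of all tested genes, 9.00% below and 10.7% above. The median log2 fold change was -0.10 over the 10 kinases and -0.013 over all tested genes. Because the libraries come from whole forebrain, fewer cells of a type and less RNA per cell cannot be told apart.

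**Figure D1:**
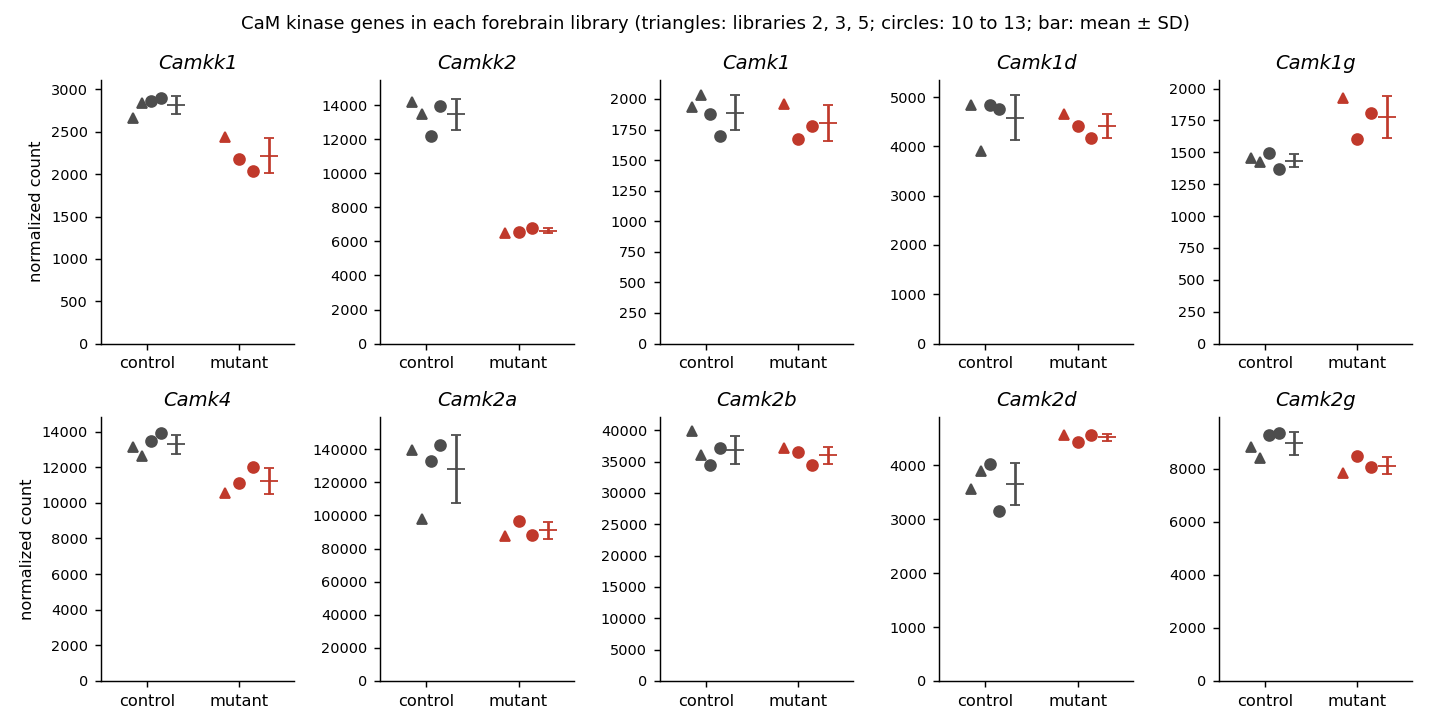
Normalized counts (axes from 0) of the 10 kinases in each of the 4 control (grey) and 3 mutant (red) libraries; triangles are libraries 2, 3 and 5, circles libraries 10 to 13, and the bars beside them the mean ± SD. The mutant libraries of Camkk2 lie between 6525 and 6787 counts, far below the lowest control at 12193, while those of Camk2b lie within the control range or just under its lowest value.

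*Camkk2* (ENSMUSG00000029471; GRCm38 chromosome 5, 122731170 to 122779409, minus strand) had 14212, 13508, 12193 and 13974 normalized counts in controls 2, 3, 10 and 11, against 6525, 6579 and 6787 in mutants 5, 12 and 13. The mutant libraries were tightly grouped, with a coefficient of variation of 2.09%, and none came near the lowest control. The mean fell from 13472 ± 901 to 6630.4 ± 138 (SD, n = 4 and 3 pools), to 49.2% of the control mean (log2 fold change -1.02 with a standard error of 0.0840, edgeR adjusted p = 0.000648). By p-value it stood at place 29 of the 19684 tested genes. Of the 383 genes with a mean control count as high as that of *Camkk2* or higher, 18 were called lower and 0 fell further than *Camkk2* in this fit. On the log2 scale libraries 2, 3 and 5 gave a difference of -1.09, and libraries 10 to 13 one of -0.96. It was called in all 16 alternative fits that gave a test, the 7 that each left out 1 library included, where its adjusted p reached 0.00613 (edgeR) at most. In the Ensembl annotation deposited with the counts, *Camkk2* exons overlap no other gene, and 0.135% of all 36-base stretches of its GENCODE M21 transcripts are also found in a different gene.

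The paralogue *Camkk1* (ENSMUSG00000020785; chromosome 11, 73019008 to 73042073, plus strand), which encodes the other CaM kinase kinase, had 2668, 2839.9, 2865 and 2899.7 normalized counts in controls 2, 3, 10 and 11, against 2441, 2179 and 2041 in mutants 5, 12 and 13. All 3 mutant libraries lay below all 4 controls, by a smaller margin, and the means were 2818 ± 103 and 2220.0 ± 203 (log2 fold change -0.34 with a standard error of 0.0821, edgeR adjusted p = 0.0512). It stood just outside the threshold, and 6 of the 16 alternative fits called it. The difference was -0.17 in libraries 2, 3 and 5 and -0.44 in libraries 10 to 13, and a test of the difference between the runs gave an unadjusted p of 0.0724 and an adjusted p of 1.00 (edgeR, genotype by run). The ratio of *Camkk2* to *Camkk1* counts was 5.33, 4.76, 4.26 and 4.82 in controls 2, 3, 10 and 11 and 2.67, 3.02 and 3.33 in mutants 5, 12 and 13. The ratios did not overlap between the genotypes.

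The 250 bases before the RefSeq start (GRCm38.p6) are shown for this pair, whose libraries lay lower in mutants, and for *Camk1g*, the cascade kinase whose libraries lay higher. Capitals mark TGACG, the half-site of the cyclic AMP response element (CRE) to which CREB, a CaMKIV substrate, binds. It was searched on both strands, together with the full site TGACGTCA, which contains it.
Camkk1, chr11:73018738-73018987 (+ strand): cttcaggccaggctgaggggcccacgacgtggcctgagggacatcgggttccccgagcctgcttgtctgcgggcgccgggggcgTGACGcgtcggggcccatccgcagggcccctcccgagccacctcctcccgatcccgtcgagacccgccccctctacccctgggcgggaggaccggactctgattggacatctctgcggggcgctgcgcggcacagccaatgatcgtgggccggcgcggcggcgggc
Camkk2, chr5:122779411-122779660 (- strand): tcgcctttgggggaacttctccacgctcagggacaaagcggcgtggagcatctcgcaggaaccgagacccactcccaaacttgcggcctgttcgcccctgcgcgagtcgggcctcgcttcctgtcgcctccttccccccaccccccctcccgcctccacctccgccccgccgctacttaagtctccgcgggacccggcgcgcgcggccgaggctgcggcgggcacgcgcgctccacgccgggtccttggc
Camk1g, chr1:193370283-193370532 (- strand): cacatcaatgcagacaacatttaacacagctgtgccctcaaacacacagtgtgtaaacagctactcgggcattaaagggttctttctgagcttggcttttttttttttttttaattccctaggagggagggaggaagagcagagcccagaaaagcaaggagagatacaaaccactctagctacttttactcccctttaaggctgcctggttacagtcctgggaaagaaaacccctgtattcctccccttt
The half-site occurs once in the *Camkk1* window, beginning 166 bases before the start, and is in neither of the other windows shown. It is held by 17.8% of the 32851 RefSeq windows of this length. Of the 7 kinases with a window in the table, *Camk1* holds the half-site too, 185 bases before its start, and 0 hold the full site, which 1.55% of all windows do. GC content was 74.4% for *Camkk1*, 72.4% for *Camkk2* and 44.8% for *Camk1g*, against a median of 52.4% over all windows. These matches describe the letters only. Both motifs were picked after the windows had been seen. The other kinases with a window are *Camk1d*, *Camk2b* and *Camk2d*.

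Of the 3 CaMKI genes, only *Camk1g* had libraries that did not overlap between the genotypes. *Camk1g* (ENSMUSG00000016179; chromosome 1, 193346346 to 193370298, minus strand), which encodes the membrane-anchored CaMKI gamma, had 1458, 1420.0, 1492 and 1372 normalized counts in controls 2, 3, 10 and 11, against 1927, 1604 and 1805 in mutants 5, 12 and 13. Each mutant library was higher than each control, and the means were 1435 ± 51.4 and 1779 ± 163 (log2 fold change 0.31 with a standard error of 0.0819, edgeR adjusted p = 0.0729). The difference was 0.42 in libraries 2, 3 and 5 and 0.26 in libraries 10 to 13. With a term for the run in the model *Camk1g* was called (adjusted p = 0.0253, edgeR), as it was by DESeq2 (adjusted p = 0.0189).

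*Camk1* (ENSMUSG00000030272; chromosome 6, 113334124 to 113343984, minus strand), the gene of CaMKI alpha, had 1937, 2036, 1879.5 and 1698 normalized counts in controls and 1963, 1671 and 1782 in mutants, in that order of libraries. *Camk1d* (ENSMUSG00000039145; chromosome 2, 5293457 to 5714515, minus strand), the gene of CaMKI delta, had 4835, 3903, 4847 and 4754 normalized counts in controls and 4658, 4406 and 4167 in mutants. The libraries of both genes overlapped between the genotypes, with log2 fold changes of -0.06 (standard error 0.0899) and -0.06 (standard error 0.0978). For *Camk1d* the sign differed between the runs, 0.09 in libraries 2, 3 and 5 and -0.15 in libraries 10 to 13, with control library 3 low. The test of this difference gave an unadjusted p of 0.196 and an adjusted p of 1.00 (edgeR, genotype by run). Exons of *Camk1* overlap those of *Ogg1* on the other strand over 3.88% of their length, and the counting is not stated to use strand.

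*Camk4* (ENSMUSG00000038128; chromosome 18, 32939041 to 33195767, plus strand) encodes CaMKIV, a largely nuclear kinase that acts on CREB. It had 13124, 12650.1, 13457 and 13938 normalized counts in controls 2, 3, 10 and 11, against 10549.7, 11103 and 12016 in mutants 5, 12 and 13. The groups did not overlap, and the nearest libraries were mutant library 13 and control library 3. In mutants the mean stood at 84.4% of control (log2 fold change -0.24 with a standard error of 0.0813, edgeR adjusted p = 0.149), with -0.29 and -0.24 in the 2 runs. *Camk4* was called with the run as a covariate (adjusted p = 0.0314, edgeR) and by DESeq2 (adjusted p = 0.0366), and in no other fit. Its exons overlap *2310026I22Rik* on the other strand over 1.48% of their length.

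**Figure D2:**
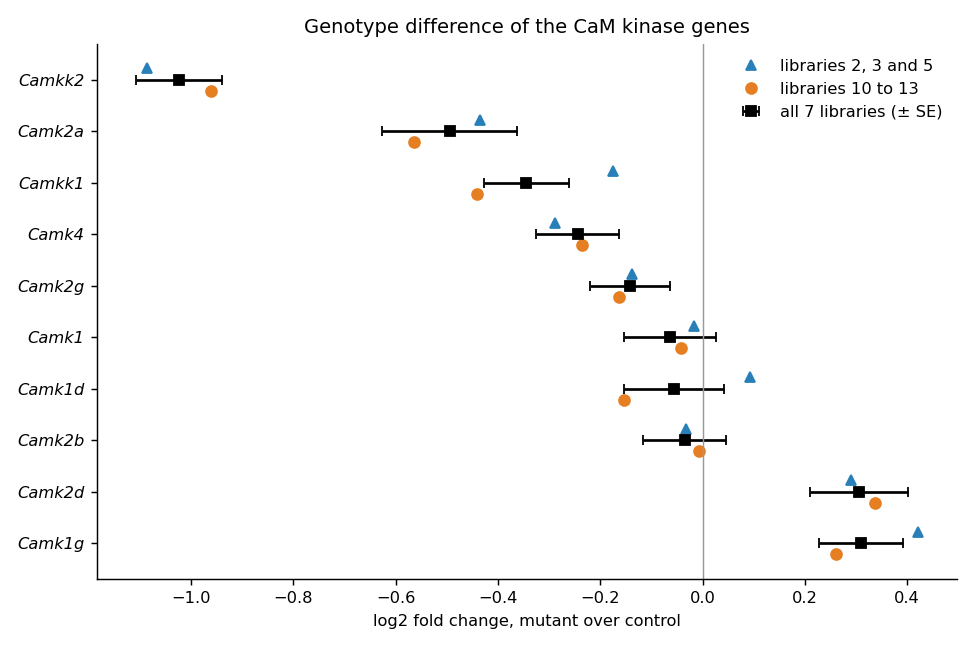
Log2 fold change of each kinase, mutant over control, from all 7 libraries (squares, bars ± SE) and within libraries 2, 3 and 5 (triangles, with library 5 the only mutant and no test) and libraries 10 to 13 (circles). Camkk2 stands alone near -1; Camk1d is the one kinase whose sign differs between the runs, 0.09 against -0.15.

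Of the CaMKII subunits, *Camk2a* lay lower in mutants, *Camk2d* higher, and *Camk2b* and *Camk2g* overlapped. *Camk2a* (ENSMUSG00000024617; chromosome 18, 60925618 to 60988152, plus strand), the alpha subunit that marks forebrain excitatory neurons, had 139359.5, 98139.9, 132709 and 142738 normalized counts in controls 2, 3, 10 and 11, against 87816, 96918 and 88327 in mutants 5, 12 and 13. Control library 3 stood far below the other controls and only just above mutant library 12. The means were 128237 ± 20492 and 91020.0 ± 5114, 71.0% of control (log2 fold change -0.49 with a standard error of 0.132, edgeR adjusted p = 0.0743). Without control library 3 the log2 fold change was -0.60 and *Camk2a* was called (adjusted p = 0.00636, edgeR); it was also called within libraries 10 to 13 (-0.56, adjusted p = 0.00403, edgeR), with the run as a covariate and by DESeq2, and in none of the other 12 alternative fits.

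*Camk2d* (ENSMUSG00000053819; chromosome 3, 126596302 to 126846326, plus strand), the delta subunit, had 3561, 3896, 4021 and 3155 normalized counts in controls 2, 3, 10 and 11, against 4561, 4439 and 4566 in mutants 5, 12 and 13. Mutant libraries were close together, with a coefficient of variation of 1.58% against 10.6% in controls, and all lay above the highest control (log2 fold change 0.31 with a standard error of 0.0949, edgeR adjusted p = 0.120). DESeq2 alone called it (adjusted p = 0.0470). *Camk2b* (ENSMUSG00000057897; chromosome 11, 5969644 to 6066362, minus strand), the actin-binding beta subunit, had 39828, 36027, 34454 and 37204 normalized counts in controls and 37090.2, 36463 and 34408 in mutants, in the same order of libraries. Its difference was -0.04 on the log2 scale with a standard error of 0.0812. *Camk2g* (ENSMUSG00000021820; chromosome 14, 20734875 to 20794088, minus strand), the gamma subunit, had 8799.9, 8412, 9278 and 9335 normalized counts in controls and 7822, 8467 and 8054 in mutants. Mutant library 12 exceeded control library 3 and the other mutant libraries lay under every control (log2 fold change -0.14 with a standard error of 0.0779, edgeR adjusted p = 0.395).

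The mix of CaMKII subunit RNA was set out by library as well. As a share of the 4 subunits' summed level per kilobase of exon, *Camk2a* made up 73.0%, 67.3%, 73.3% and 73.9% in controls 2, 3, 10 and 11 and 64.8%, 66.7% and 65.8% in mutants 5, 12 and 13. *Camk2b* made up 17.2% ± 2.14 in controls and 21.3% ± 0.979 in mutants (SD, n = 4 and 3). Control library 3 had the lowest *Camk2a* share of the controls and the mutant libraries lay below it by a small margin. Counts of *Camk2a* were 3.50, 2.72, 3.85 and 3.84 times those of *Camk2b* in the controls and 2.37, 2.66 and 2.57 times in the mutants. Per kilobase of the longest transcript instead, the *Camk2a* share was 67.9% ± 3.49 and 60.9% ± 1.18. No test was made of shares.

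Levels between genes were compared as CPM (counts scaled by the library total after TMM) per kilobase of all annotated exons (CPM per kb; mean ± SD of the 4 controls). *Camk2a* was the most abundant of the 10 kinases at 482 ± 77.0, followed by *Camk2b* at 113 ± 6.97, *Camk2g* at 67.9 ± 3.30, *Camkk2* at 34.6 ± 2.32, *Camk4* at 30.3 ± 1.24, *Camkk1* at 21.2 ± 0.775, *Camk1d* at 17.3 ± 1.72, *Camk1g* at 14.6 ± 0.523, *Camk1* at 8.87 ± 0.665 and *Camk2d* at 4.56 ± 0.484 CPM per kb. Control libraries of neighbours in this order overlapped for *Camkk2* and *Camk4* and for *Camk1d* and *Camk1g*, and not for the other pairs. In mutants *Camkk2*, at 17.0 ± 0.355 CPM per kb, moved from place 4 to place 6 by the mean, below *Camk4* and *Camk1g*, and stood close to *Camkk1* at 16.7 ± 1.53. Its values in mutants 5, 12 and 13 (16.8, 16.9 and 17.4) overlapped those of *Camk1g* (19.6, 16.3 and 18.4). The order below the first pair depends on the length used: all annotated exons of *Camk2d* span 22493 bases and its longest transcript 5524, and per kilobase of the longest transcript its control level was 18.6 ± 1.97 CPM per kb and its place 8, while *Camkk2* stood in place 3 at 77.8 CPM per kb. By that length *Camkk2* stood in place 4 in mutants, at 38.3 CPM per kb, above *Camk1g* at 20.2.

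**Figure D3:**
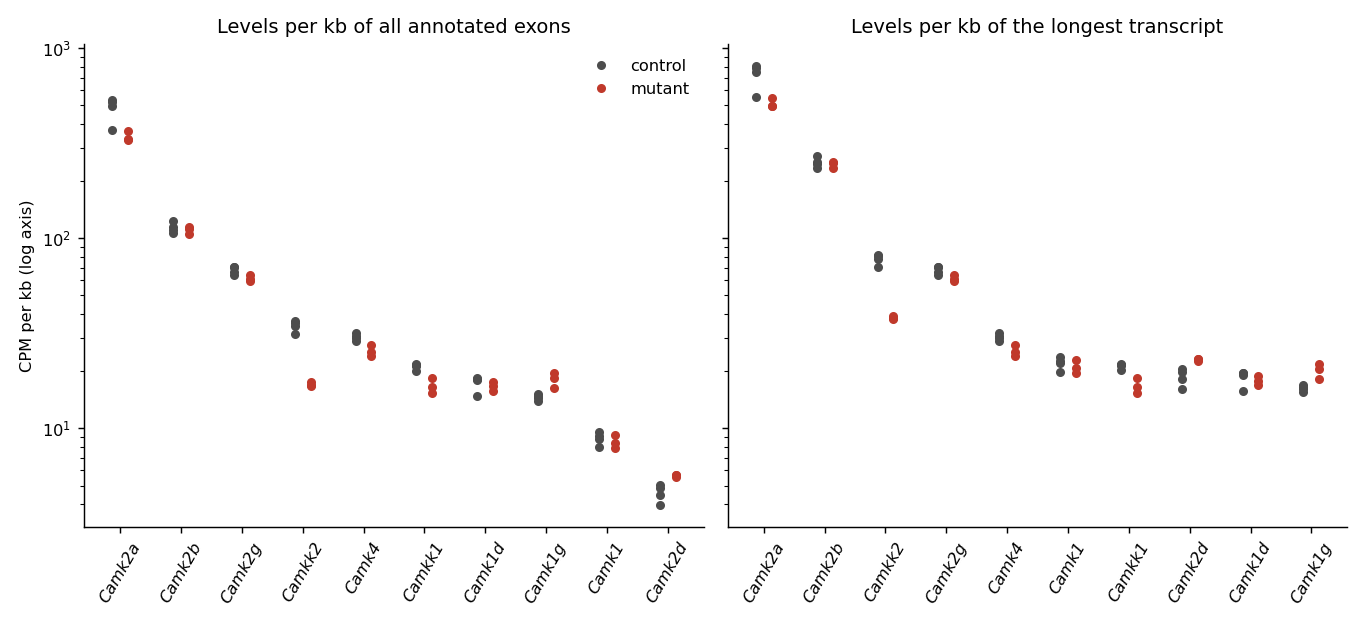
Level of each kinase in CPM per kb (log axis) in the 4 control (grey) and 3 mutant (red) libraries, per kilobase of all annotated exons (left) and of the longest transcript (right), ordered by the control mean. Camk2a and Camk2b lead both orders, and the gap between grey and red is widest for Camkk2.

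A further 53 genes of the pathway were listed by role: calmodulin and the proteins that buffer it, other calmodulin-dependent or CaM kinase-like kinases, inhibitors and phosphatases of CaM kinases, calcineurin, and CaM kinase substrates. Of these 53 genes, 5 were called lower and 1 higher in mutants (edgeR's quasi-likelihood test, Benjamini-Hochberg over all genes), against 1.87% and 2.97% of all tested genes, and their median log2 fold change was -0.08.

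Among the 7 inhibitors and phosphatases, *Camk2n1*, which encodes a small protein inhibitor of CaMKII, was called lower. It had 40836, 51464, 48395 and 50578 normalized counts in controls 2, 3, 10 and 11, against 23654, 27963 and 27745 in mutants 5, 12 and 13, and no mutant library reached the lowest control. The mean fell from 47818 ± 4830.5 to 26454 ± 2427 (log2 fold change -0.85 with a standard error of 0.110, edgeR adjusted p = 0.00449), and all 16 alternative fits called it. *Camk2n2*, the gene of a related inhibitor, had a log2 fold change of 0.15 (adjusted p = 0.612, edgeR). *Ppm1e* and *Ppm1f*, which encode phosphatases of CaM kinases, had 0.27 and -0.27. Neither was called, while DESeq2 called *Ppm1f* (adjusted p = 0.0311), as did edgeR with a run term (adjusted p = 0.0129) and within libraries 10 to 13 (adjusted p = 0.0240). *Ppp1ca*, a catalytic subunit of protein phosphatase 1, had -0.12. Counts of *Camk2n1* were 0.293 to 0.524 times those of *Camk2a* in controls and 0.269 to 0.314 times in mutants, so this ratio overlapped between the genotypes.

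Among the 13 other kinases, *Camkv* was called lower and *Mylk* higher. *Camkv*, a CaM kinase-like protein without kinase activity that is found at synapses, had 19567, 20949.9, 18789 and 18795 normalized counts in controls 2, 3, 10 and 11, against 12959.9, 12979 and 13056 in mutants 5, 12 and 13. The mutant libraries were nearly equal, and the mean fell from 19525 ± 1018 to 12998 ± 51.1 (log2 fold change -0.59 with a standard error of 0.0770, edgeR adjusted p = 0.00480). *Mylk*, the gene of myosin light chain kinase, rose from 521 ± 30.6 to 858 ± 43.5 (log2 fold change 0.72 with a standard error of 0.0916, edgeR adjusted p = 0.00424). All 16 alternative fits called both genes. *Pnck*, which encodes a further CaMKI, had a log2 fold change of -0.41 with overlapping libraries (-0.69 and -0.14 in the 2 runs), and *Dclk1*, a microtubule-binding kinase of the same superfamily, had 0.28 with mutant libraries all above the controls (adjusted p = 0.0704, edgeR). *Dclk1* was called by DESeq2 (adjusted p = 0.000727), and by edgeR with a run term (adjusted p = 0.0248) and within libraries 10 to 13 (adjusted p = 0.0336). The other 9 ran from -0.16 for *Dapk1* to 0.25 for *Dapk2*, none called.

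In the calmodulin list, *Nrgn* was called lower. Its product, neurogranin, holds calcium-free calmodulin at the postsynapse. *Nrgn* had 82834, 89447, 53347 and 59059 normalized counts in controls 2, 3, 10 and 11, against 40819, 35120.5 and 30943 in mutants 5, 12 and 13. It varied between the runs as well as between the genotypes: control libraries 10 and 11 lay below control libraries 2 and 3, and every mutant library lay below every control (log2 fold change -0.998 with a standard error of 0.195, edgeR adjusted p = 0.0246). The difference was -1.08 and -0.76 in the 2 runs, and the call was lost without control library 2 or without any 1 of the 3 mutant libraries (adjusted p from 0.0508 to 0.124, edgeR). The calmodulin genes *Calm2* and *Calm3* had log2 fold changes of -0.15 and -0.41, with adjusted p-values of 0.580 and 0.0921 (edgeR). *Calm3* was called by DESeq2 (adjusted p = 0.0149), and by edgeR with a run term (adjusted p = 0.0114) and within libraries 10 to 13 (adjusted p = 0.0433). *Gap43*, *Pcp4* and *Pcp4l1*, whose products also bind calmodulin, had -0.36, 0.30 and 0.57, none called. Those other fits called *Pcp4l1* too, with adjusted p-values of 0.0125 (DESeq2), 0.0129 and 0.00443 (edgeR), and *Pcp4* was called within libraries 10 to 13 (adjusted p = 0.0108, edgeR).

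Of the 7 calcineurin genes, which encode the calmodulin-dependent phosphatase and its regulators, 0 were called by edgeR or by DESeq2 over all 7 libraries with the genotype as the one term. *Ppp3ca* at -0.51 and *Ppp3r1* at -0.40 on the log2 scale, 2 of the 7, had an unadjusted p of 0.05 or less in edgeR, against 18.2% of all tested genes. *Ppp3ca* was called by edgeR with a run term (adjusted p = 0.0177), and both were called within libraries 10 to 13 (adjusted p = 0.00652 and 0.0157, edgeR). *Rcan2* had -0.25 and *Ppp3cb* -0.20. Of the 19 substrates, 2 were called, both lower. *Gria1*, an AMPA receptor subunit that CaMKII phosphorylates, had 13451, 12368, 13109 and 11596 normalized counts in controls 2, 3, 10 and 11, against 9519.9, 8864 and 8326 in mutants 5, 12 and 13. Its mutant libraries all lay under the controls (log2 fold change -0.50 with a standard error of 0.0887, edgeR adjusted p = 0.0154), and the call was lost without control library 10, mutant library 12 or mutant library 13 (adjusted p up to 0.104, edgeR). *Nos1*, neuronal nitric oxide synthase and also the marker of a class of *Lhx6*-lineage interneurons, fell from 1893 ± 362 to 1164 ± 7.58 (log2 fold change -0.70 with a standard error of 0.149, edgeR adjusted p = 0.0337) and kept its call in 1 of the 7 fits that left out 1 library, the one without control library 3 (adjusted p up to 0.135, edgeR). *Creb1*, *Prkaa1* and *Prkaa2*, whose products lie downstream of CaMKIV and CaMKK2, are given for their role and were picked after their values were seen: their log2 fold changes were -0.04, 0.02 and 0.13, none called. Of the other substrates *Tiam1* had -0.32, *Map2* 0.18, *Kalrn* -0.16 and *Atf1* -0.15, none called, though *Tiam1* was called within libraries 10 to 13 (adjusted p = 0.0187, edgeR).

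**Figure D4:**
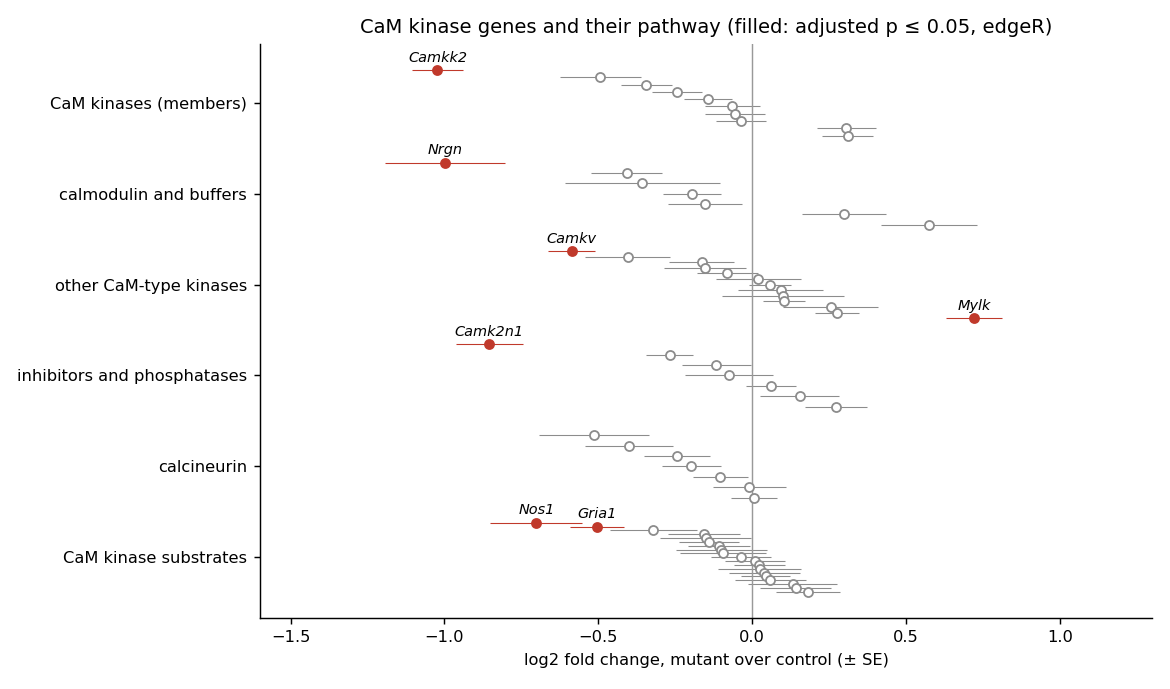
Log2 fold changes (mutant over control, ± SE) of the 10 kinases and of the 53 pathway genes in 5 lists, with named, filled points for genes at an adjusted p of 0.05 or less in edgeR. Camkk2, Nrgn, Camkv, Camk2n1, Nos1 and Gria1 are called lower and Mylk is called higher.

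Markers of cell types moved with the genotype too, and their part in the differences of the kinases was not tested. The 6 oligodendrocyte markers summed to 234093 to 301285 normalized counts in controls and 167772 to 206215 in mutants, with 3 called lower (*Mbp*, *Mag* and *Cnp*). The 6 astrocyte markers summed to 48597 to 52875 normalized counts in controls and 71071 to 80425 in mutants, with *Gfap* called higher. The 7 striatal projection neuron markers summed to 9672 to 15983 normalized counts in controls and 17022 to 22976 in mutants, with *Penk* and *Tac1* called higher. Among 7 GABAergic markers *Sst* and *Pvalb* were called lower, while *Gad1* and *Gad2* had log2 fold changes of 0.50 and 0.48, called higher by DESeq2 (adjusted p = 0.0155 and 0.0140). The rest of the list ran from -0.12 for *Dlx5* to 0.01, with *Slc32a1* at -0.04, all with overlapping libraries and none called. The list summed to 24636 to 26773 normalized counts in controls and 21685 to 28902 in mutants. The 6 cortical excitatory markers summed to 74363 to 85343 normalized counts in controls and 84076 to 101749 in mutants. Most of this sum was *Slc17a7*, with 62495 to 73436 normalized counts in controls and 73564 to 90141 in mutants. The median log2 fold change of the 6 genes was -0.10, with 2 positive and 4 negative. *Slc17a7*, the vesicular glutamate transporter of these neurons, had a log2 fold change of 0.25 (adjusted p = 0.203, edgeR), opposite in sign to *Camk2a*. The 5 pan-neuronal markers summed to 130385 to 146806 normalized counts in controls and 112049 to 130609.9 in mutants, 0 of them called by edgeR or DESeq2 over all 7 libraries with the genotype alone, with 2 at an unadjusted p of 0.05 or less in edgeR (18.2% of all genes). *Syt1*, a synaptic vesicle protein on that list, was called by edgeR with a run term (adjusted p = 0.0174) and within libraries 10 to 13 (adjusted p = 0.0495). Neither microglial nor endothelial markers were called in the same fits (0 of 5 and 0 of 4 by edgeR and by DESeq2, with 2 and 2 at an unadjusted p of 0.05 or less in edgeR). With a run term edgeR called *P2ry12* of the microglial list (adjusted p = 0.0317) and *Cldn5* and *Pecam1* of the endothelial list (adjusted p = 0.00573 and 0.0360). The lists summed to 9817 to 10280.4 normalized counts in controls and 8249.7 to 9678 in mutants, and to 5491 to 6013 normalized counts in controls and 6956 to 7210.4 in mutants. The 5 cerebellar markers summed to at most 835 normalized counts in any library, and the granule cell marker *Gabra6* was at 0 counts in 6 libraries and at 12 in control library 3.

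The runs of library numbers, which did not enter the choice of the kinases, were compared in a fit with the genotype as a term. At an adjusted p of 0.05 or less, 14.7% of all tested genes differed between libraries 10 to 13 and libraries 2, 3 and 5, and 0 of the 10 kinases did by edgeR or by limma-voom, with 1 kinase at an unadjusted p of 0.05 or less in edgeR against 30.6% of all genes. That gene was *Camk1*, with a log2 difference of -0.16, libraries 10 to 13 over libraries 2, 3 and 5 (standard error 0.0636, adjusted p = 0.120, edgeR). *Camk2a* had the next largest difference among the 10, at 0.16 (standard error 0.116), and *Camkk2* had -0.04 (standard error 0.0721). The genotype difference itself was not called as differing between the runs for any of the 10 kinases (genotype by run, edgeR, 0 at an unadjusted p of 0.05 or less); over all tested genes 0.0152% were called and 2.64% had an unadjusted p of 0.05 or less.

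**Figure D5:**
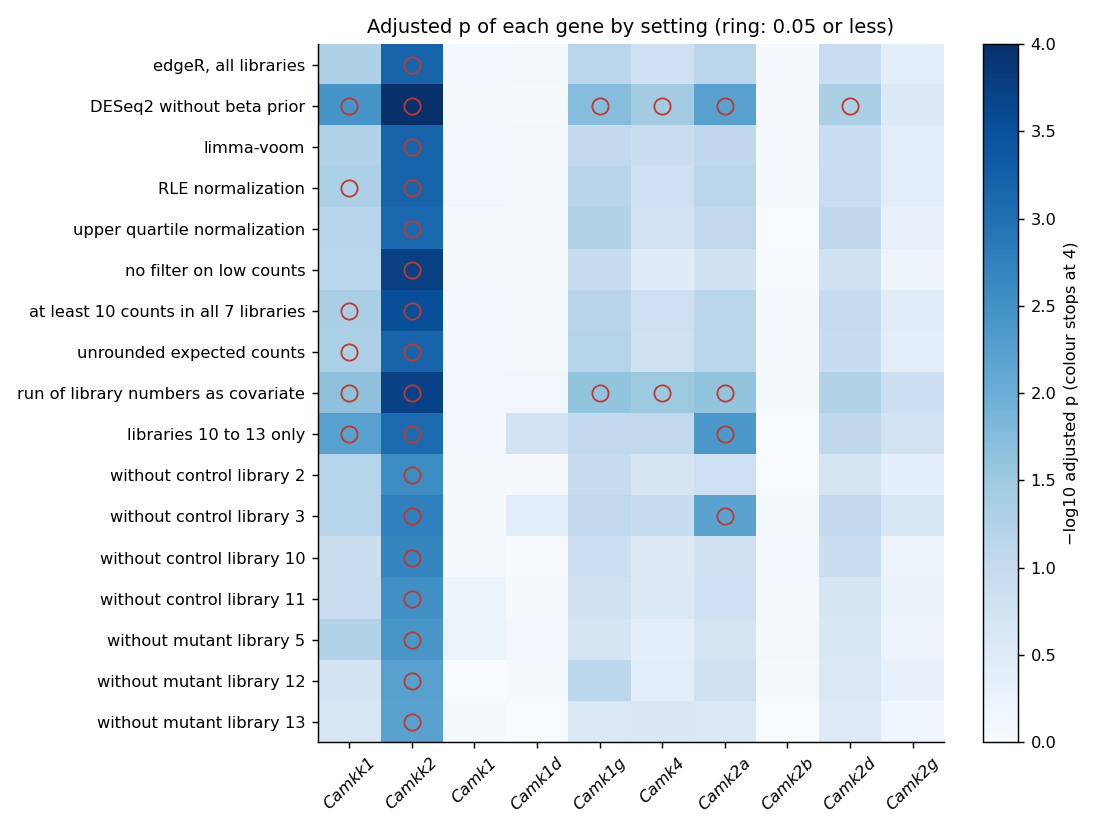
Adjusted p-value of each kinase (across) in the all-gene fit and in 16 alternative fits (1 per line), as −log10 with the colour scale stopping at 4; rings mark 0.05 or less. Camkk2 has a ring in every line, and DESeq2, with 6 kinases, and the fit with the run as covariate, with 5, have the most rings.

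How many kinases were called depended on the fit. DESeq2 called 6 of the 10 (8.79% of all genes called) and the fit with the run as a covariate 5 (11.2% of all genes); within libraries 10 to 13 it was 3 (9.55% of all genes). Under DESeq2 these were *Camkk1*, *Camkk2*, *Camk4* and *Camk2a*, lower (3.70% of all genes), and *Camk1g* and *Camk2d*, higher (5.09% of all genes). Fits without control library 2, 3, 10 or 11 called 3.49%, 5.0%, 2.64% and 3.03% of all genes, and fits without mutant library 5, 12 or 13 called 2.37%, 1.99% and 1.56%. In 6 of these 7 fits *Camkk2* was the one kinase called, and without control library 3 *Camk2a* was called too. *Camk1*, *Camk1d*, *Camk2b* and *Camk2g* were called in 0 of the 16 alternative fits, and in the edgeR fit of all 7 libraries with the genotype alone 0 of them had an unadjusted p of 0.05 or less.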

How the data were processed

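RNA from whole forebrain of postnatal day 15 mice (4 control and 3 mutant pools of 2 animals) was sequenced. The authors trimmed reads with cutadapt 1.9.1, aligned them with Bowtie2 2.2.9 to GRCm38 and estimated expected counts per gene with RSEM 1.2.31, and these deposited expected counts were used here, rounded to whole numbers. The deposited DESeq2 comparison (log2 fold change, its standard error, test statistic, p-values and mean count) was not used except for gene symbols, joined by Ensembl identifier. Columns give the genotype and a library number but not the replicate number of the labels, so the sex of the mice and the RNA integrity could not be tied to libraries.

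All genes that reached 10 counts in 3 or more libraries were tested with edgeR 4.0.16 (TMM, quasi-likelihood test, Benjamini-Hochberg, threshold 0.05; R 4.3.3), after the fit had been tested on simulated data. The authors used DESeq2, which is an alternative here (version 1.42.0), as are limma-voom (limma 3.58.1), other scalings and filters, unrounded counts, a term for the run of library numbers, libraries 10 to 13 alone (10 counts in 2 libraries) and leaving out each library. Libraries held 32556304 to 38069151 counts, and 3 counts correspond to a CPM of 0.0788 to 0.0921. Replicates differed by more than sampling noise (chi-square per degree of freedom 9.96 to 70.8), and p-values measure the spread between pools.

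The members and lists were chosen with earlier results of these data known. All 10 kinases are named, and of each pathway or marker list the genes called and up to 4 others with the largest absolute log2 fold change, with the calmodulin genes always. A few genes that this rule names are not reported here. Exon lengths and overlaps came from the deposited Ensembl annotation of GRCm38, shared 36-base stretches from GENCODE M21 transcripts, and windows before the start from RefSeq, for 7 of the 10 kinases.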

Additional observations from a re-analysis of the deposited data

Results flagged for a closer look

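Control library 3 had 3903 normalized counts of *Camk1d*, and the other 3 controls lay between 4754 and 4847. The gap to the nearest of them was 0.901 of the range of the 4 controls, which Dixon's test at the 95% level marks as far from the rest. In all, 16 groups of 4 controls were examined (the 10 kinases and the 6 pathway genes called in mutants), and chance alone marks about 5% of such groups. Without control library 3 the log2 fold change of *Camk1d* was -0.13 (adjusted p = 0.374, edgeR).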

How the results depend on the processing

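The fall of *Camkk2* kept its direction and its call in all 16 alternative fits (log2 fold change -1.07 to -0.96). Of 170 kinase values under alternatives, those within libraries 2, 3 and 5 had no test and could only keep or change direction. In all, 153 values kept direction and, where there was a test, side of the threshold. Another 15 passed the threshold that they had missed, and 2 changed sign, both small differences that were not called: *Camk1d* (0.092 within libraries 2, 3 and 5, a value with no test) and *Camk2b* (-0.0667 to 0.0026 without 1 library, the last without control library 2). The number of kinases called was 6 with DESeq2, 5 with the run as a covariate, 3 within libraries 10 to 13, and 2 with RLE scaling, with 10 counts required in all 7 libraries or with unrounded counts, against 1. Leaving out each library gave 1 to 2, with 2 without control library 3. Of all genes, 1731 were called by DESeq2, 2205 with the run as a covariate, 1867 within libraries 10 to 13 and 302 to 971 without 1 library, against 954. Of the 53 pathway genes, 10, 11, 14 and 3 to 8 were called in the same order, against 6; *Camkv*, *Camk2n1* and *Mylk* were called in all 16 fits. The run contrast called 700 to 4530 genes without 1 library, against 2902, and 0 kinases each time. The genotype by run test called 1 gene by limma-voom and 38 with no filter on low counts, against 3. The causes were not tested. Per kilobase of the longest transcript the *Camk2a* share was 67.9% in controls and 60.9% in mutants, against 71.9% and 65.8%. No paired analysis was possible because the column names show the genotype and a number that matches no replicate of the labels. Each kinase had at least 1372 normalized counts in every library, and counts of replicates differed by more than counting error, so the spread between pools and their number (4 and 3) limit which differences could be called.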
